A study of Homo sapiens with 2 samples.

Results

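MITF, SOX10, TYR and MLPH, which are 2 transcription factors of the melanocyte, the tyrosinase gene and a gene of melanosome transport, were examined as a group in UACC62 cells, an established human melanoma line. Probe sets entered the group by gene symbol, and the 4 symbols were picked with earlier results of these data known. All 4 genes had a name in the probe set table used here, each with 1 probe set, out of 14884 named genes. The cells grew in medium with fetal calf serum and received either a non-targeting siRNA, taken as the control (1 array), or an siRNA against FOSL1 (1 array). Both were harvested on day 3 after transfection. FOSL1, also called FRA1, is a FOS family subunit of the transcription factor AP-1, and the title of the series links it to melanocyte reprogramming and transformation. The siRNA was not described further, so FOSL1 loss and any effect of the siRNA on other transcripts cannot be told apart in these differences. The line stems from a melanoma and stands for no normal melanocyte.

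Melanocytes make melanin in melanosomes, organelles related to lysosomes that are moved to the cell edge. MITF is the basic helix-loop-helix factor that controls much of this programme, and SOX10, an HMG-box factor of the neural crest, acts on the MITF gene together with PAX3 and CREB. Among the genes that MITF and SOX10 are known to act on is TYR, which encodes tyrosinase, the enzyme that limits the rate of melanin synthesis. MLPH encodes melanophilin, the adaptor that ties the melanosome GTPase RAB27A to the motor protein myosin Va.

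The stretches before the transcription starts of 3 genes are shown because they hold the short motifs by which these regulators are known to bind. RefSeq windows on GRCh38.p14 were found for 3 of the 4 members, 6 windows in all, and the 250 bases upstream of each start were searched on both strands. Capitals mark the matches in the windows of TYR, of the most downstream of the 3 MITF starts and of the more downstream of both MLPH starts.
TYR (chr11:89177625-89177874, + strand): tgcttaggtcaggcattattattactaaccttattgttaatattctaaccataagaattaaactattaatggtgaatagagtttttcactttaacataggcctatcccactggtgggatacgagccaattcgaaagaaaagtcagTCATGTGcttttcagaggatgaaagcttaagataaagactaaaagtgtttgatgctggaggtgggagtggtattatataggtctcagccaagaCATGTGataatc
MITF (chr3:69936342-69936591, + strand): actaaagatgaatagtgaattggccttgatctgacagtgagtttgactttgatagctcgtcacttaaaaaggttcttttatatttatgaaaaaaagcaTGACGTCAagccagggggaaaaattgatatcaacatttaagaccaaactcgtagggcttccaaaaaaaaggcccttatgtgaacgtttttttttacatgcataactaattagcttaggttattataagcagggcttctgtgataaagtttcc
MLPH (chr2:237487001-237487250, + strand): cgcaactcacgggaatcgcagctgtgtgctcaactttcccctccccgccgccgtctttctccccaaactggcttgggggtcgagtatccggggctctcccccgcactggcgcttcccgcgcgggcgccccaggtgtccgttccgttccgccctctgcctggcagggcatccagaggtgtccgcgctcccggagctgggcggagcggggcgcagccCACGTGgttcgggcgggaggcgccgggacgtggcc

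The TYR window held TCATGTG, the core of the element known as the M-box, at 105 to 99 bases before the start. That match includes CATGTG, an E-box that MITF binds as a dimer, and a second CATGTG lay at 12 to 7 bases before the start. Of all 35116 upstream windows in the table, 9.42% held CATGTG and 2.52% held TCATGTG. The MITF window held TGACGTC on each strand in overlapping positions, together from 152 to 145 bases before the start. These letters are part of the cyclic AMP response element, to which CREB binds, and 3.12% of all windows held it. The MLPH window held CACGTG, another E-box, at 35 to 30 bases before the start, where 6.34% of all windows held 1. The most upstream MITF window held ACAATG and the middle one ACAAAG, both of the kind that SOX factors bind, present in 9.29% and 13.7% of all windows. None of the 6 windows held TGANTCA, an AP-1 sequence but not the only one, which was found in 6.57% of all windows. The other MLPH window held none of the 7 motifs. A match is a sequence feature only, no binding was measured here, and the lack of a match says only that these letters are not in the window.

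Each array gave 1 deposited value per probe set, taken here as log2 intensity. The values of both arrays had nearly the same distribution, with medians of 6.88 and 6.89. Genes with a mean log2 value of at least 8.02, the median of named genes, passed a filter on dim genes, which left 7442. Differences are given on the log2 scale as the FOSL1 siRNA array minus the control array, so a value above 0 is higher after FOSL1 siRNA. Each condition had 1 array, so no test, p-value or replicate error could be had, and all differences describe these arrays alone. The number of arrays limits their precision. The targeted gene checked the labels: FOSL1 stood at 11.90 (log2) in the control array and at 10.38 after FOSL1 siRNA, a level 2.88-fold lower.

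The labelled cell type was set against melanocyte markers. S100B, a calcium-binding protein of neural crest cells, measured 13.18 (log2) in the control array and 13.09 after FOSL1 siRNA, and MLANA, the melanoma antigen Melan-A, had 9.57 and 9.69. PMEL, which forms the fibrils of the melanosome, lay under the filter with 6.62 and 6.90, as did TYRP1, an enzyme of melanin synthesis, with 6.50 and 6.47. In all, 5 of the 7 named melanocyte markers passed the filter and 2 of the pigment markers did not. Among those that passed, S100A1 had 8.47 and 8.06, a difference of -0.40. MCAM differed by 0.21 and CSPG4 by -0.10. None of the 7 named keratinocyte markers and neither of the 2 named leukocyte markers passed it. LUM, a proteoglycan of fibroblasts, had 11.05 and 11.53, whereas DCN, another fibroblast proteoglycan, had 4.15 and 3.97. KDR, a receptor of endothelium, had 11.20 and 11.39, whereas VWF and PECAM1 of the same cells lay under the filter. The part of other cells in the differences was not tested.

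**Figure D1:**
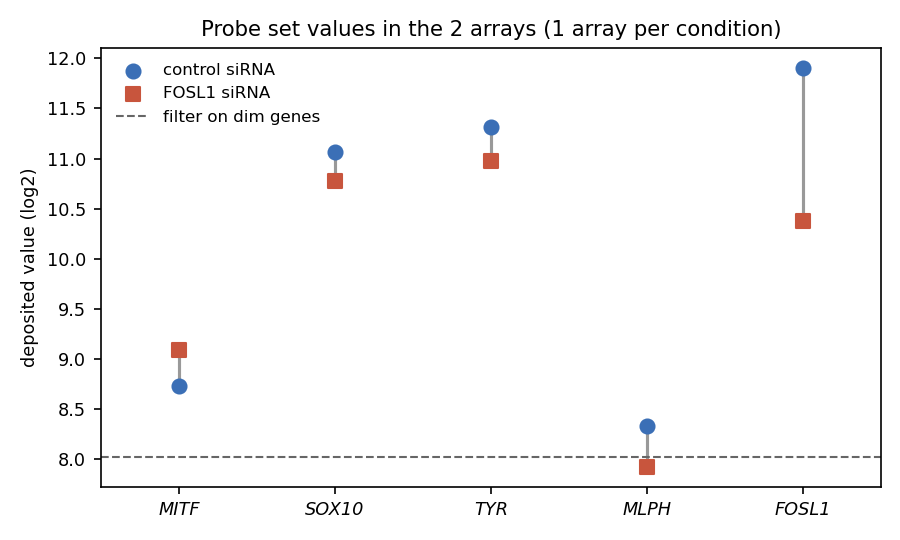
Deposited log2 value (vertical axis) of the probe set of each gene on the horizontal axis, in the array with control siRNA (circles) and the array with FOSL1 siRNA (squares), with the filter on dim genes at 8.02 as a dashed line. MITF was higher with FOSL1 siRNA, the other members and FOSL1 were lower, and MLPH crossed the filter. Heights of different genes are not comparable, since probe sets differ in how brightly they hybridise.

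MITF was the member with the higher level in FOSL1 siRNA, and SOX10, TYR and MLPH had lower levels. The sizes lay close together, from 1.23-fold for SOX10 to 1.33-fold for MLPH, and were small beside that of FOSL1. All 4 members passed the filter and lay at least 1.2-fold from the control, where 20.9% of the 7442 genes did so in either direction. For the higher direction, taken by 1 member, this background was 11.1%, and for the lower direction, taken by 3 members, it was 9.78%. None of the members reached 1.5-fold, as against 1.89% of all genes, 1.13% higher and 0.766% lower. The 1.2-fold threshold was chosen with the members' values known, so that their count at it is a description. In RNA from whole cultures, fewer cells that express a gene and less of its RNA per cell cannot be told apart.

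MITF (Entrez gene 4286, probe set 16942576) measured 8.73 on the log2 scale in the control array and 9.09 in the FOSL1 siRNA array. The value was thus higher in the FOSL1 siRNA array, with a difference of 0.36, or 1.28-fold. Of the 7442 genes, 424 (5.70%) had a difference at least as high. The table pairs this probe set with 1 of many MITF transcripts, and the probes were not resolved by start site, so the melanocyte form that begins at the start shown above cannot be told apart from the longer forms.

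SOX10 (Entrez gene 6663, probe set 16934881) measured 11.07 on the log2 scale in the control array and 10.77 in the FOSL1 siRNA array. The difference of -0.30 put its level at 81.3% of the control, and 540 genes (7.26%) had a difference at least as low. SOX10, which acts upstream of MITF, and MITF lay on opposite sides of 0, and their differences stood 0.66 log2 units apart. This gap has no error of its own.

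TYR (Entrez gene 7299, probe set 16729865), whose product makes melanin from tyrosine, measured 11.31 on the log2 scale in the control array and 10.98 in the FOSL1 siRNA array. The difference was -0.34, which put the level at 79.2% of the control, and 381 genes (5.12%) were at least as low. TYR therefore lay on the side of SOX10 and not on that of MITF, from whose difference it stood 0.70 log2 units apart. A pseudogene that resembles the end of TYR exists in the human genome, and whether its transcripts add to this probe set was not tested.

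MLPH (Entrez gene 79083, probe set 16892869), the melanosome adaptor, measured 8.33 on the log2 scale in the control array and 7.92 in the FOSL1 siRNA array. Its difference of -0.41 was the largest of the members in size and put the level at 75.3% of the control. Of all genes past the filter, 218 (2.93%) were at least as low. The value with FOSL1 siRNA was under the filter, and MLPH passed it through its mean.

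**Figure D2:**
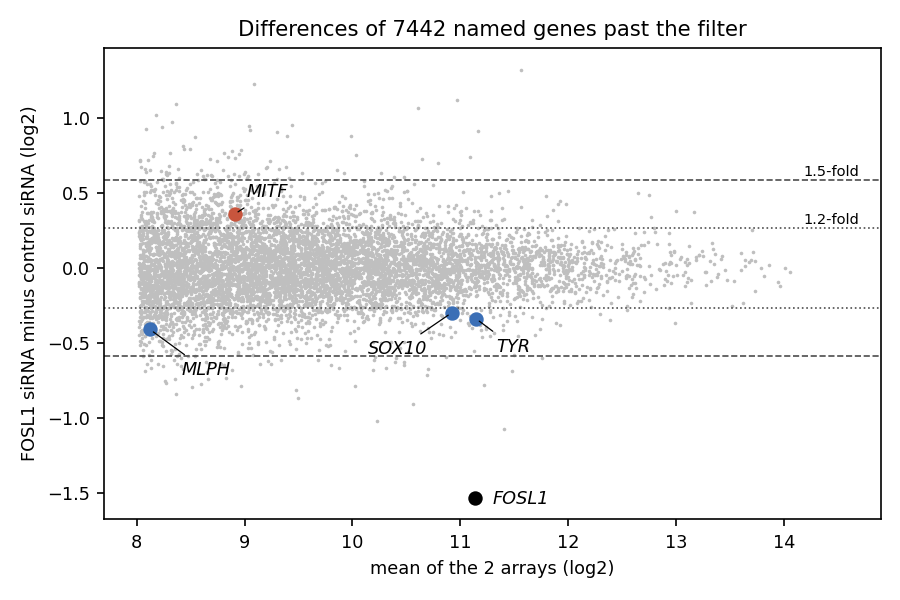
Difference between the arrays (log2, FOSL1 siRNA minus control siRNA, vertical axis) against the mean log2 value of both (horizontal axis) for each of the 7442 named genes past the filter, with dotted lines at 1.2-fold and dashed lines at 1.5-fold. The 4 members lie between the dotted and dashed lines, MITF above 0 and the others below, within the range that other genes span, whereas FOSL1 at -1.53 is the lowest point.

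Differences spread less among bright genes, and SOX10 and TYR were bright. Among the 3721 genes with a mean log2 value of at least 9.48, the 75th percentile of named genes, the SD of the differences across genes was 0.19, compared with 0.23 over the 7442. Of these, 173 genes (4.65%) were at least as low as SOX10 and 120 (3.22%) at least as low as TYR. MITF and MLPH were dimmer and lay outside this set.

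How far 1 probe set can be relied on was read from genes that have several. For 185 genes 2 or more probe sets passed the filter and did not repeat the same values. Their brightest and next probe sets gave differences with a median gap of 0.10 log2 units, and the SD between probe sets was 0.18. The brightest probe set was at least 1.2-fold from the control in 44 of these genes. The next probe set had the same sign in 34 of them and the opposite sign in 10, and it reached 1.2-fold in the same direction in 16. The members have 1 probe set each, so none of them could be checked in this way. The spread between cultures is not part of these figures, since each condition had a single array.

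Short genes tended to have lower differences in these arrays, with a slope of 0.11 log2 units per 10-fold of gene span in RefSeq. MITF spans 229 kb and SOX10 12.2 kb, while TYR spans 118 kb and MLPH 68.9 kb. When this trend was removed, which was chosen after the data had been seen, MITF had a difference of 0.25, or 1.19-fold, and no longer reached 1.2-fold. SOX10 had -0.27, TYR -0.42 and MLPH -0.46 on that scale, so that SOX10 moved toward 0 and the long genes TYR and MLPH away from it. The opposite sides of MITF and the other members remained.

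The factors that work with MITF and SOX10 lay on both sides of 0. Of 31 listed melanocyte transcription factors, 26 had a named probe set and 19 passed the filter, with a median difference of 0.00, the same as over all 7442 genes (-0.00). MITF and 2 others reached 1.2-fold above the control, and SOX10 reached it below. Together that was 21.1% of the 19, against 20.9% of all genes. PAX3, the paired-box factor that acts on the MITF gene with SOX10, measured 10.52 in the control array and 10.86 after FOSL1 siRNA, a difference of 0.34. LEF1, the nuclear partner of beta-catenin in WNT signalling, had 9.48 and 9.77, a difference of 0.28, and ALX1, a homeobox factor, had a difference of 0.26. PAX3 and LEF1 thus lay on the side of MITF. In the other direction TBX3, a T-box repressor, differed by -0.21, the homeobox factor MSX1 by -0.16 and SOX8, which like SOX10 is of the SOXE group, by -0.15. SOX9, the third SOXE factor, was at -0.00 with log2 values of 8.97 in both arrays, and CREB1 was at 0.00. TFE3, a close relative of MITF, differed by -0.05.

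Receptors and signals that act on MITF also pointed both ways. Of 43 listed genes, 30 were named and 23 passed the filter, with a median of 0.05. Among those that passed, 3 reached 1.2-fold above the control and 1 below it. Their share was 17.4% of the 23, against 20.9% of all genes. KITLG, the ligand of the KIT receptor, had log2 values of 8.04 and 8.41, a difference of 0.37. KIT itself lay under the filter, with 6.34 and 5.98. FZD7, a WNT receptor, had a difference of 0.36 and attractin (ATRN), a membrane protein of the agouti pathway, 0.34. The gene at least 1.2-fold lower was CRTC2, a coactivator of CREB, with 10.29 and 9.97, a difference of -0.32. CRTC1 of the same family differed by -0.25, but CRTC3 by 0.22, and the kinase ERK1 (MAPK3) by -0.23. MC1R, the melanocortin receptor that raises cyclic AMP, had 9.00 and 8.89, a difference of -0.12. EDNRB, the endothelin receptor of melanocytes, had a difference of 0.17.

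Apart from TYR, no gene of melanin synthesis or melanosome structure that passed the filter reached 1.2-fold. The list held 28 genes, of which 16 were named and 11 passed, with a median of -0.07 and 7 below 0. TYR made up 9.09% of the 11, and 20.9% of all genes reached 1.2-fold. GSTP1, a detoxifying enzyme, differed by -0.19, and TPCN2, a channel of the melanosome membrane, by -0.14. Its relative TPCN1 lay on the other side at 0.18. GPNMB, a glycoprotein of melanosomes, had log2 values of 12.85 and 13.01, a difference of 0.16, and MLANA had 0.12. OCA2, a transporter that sets melanosome pH, and GPR143, a receptor in the melanosome membrane, were under the filter. OCA2 had 6.60 and 6.31, and GPR143 had 6.97 and 6.59.

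The nearest gene to MLPH in transport was SYTL5. Of 26 listed transport genes 16 were named and 12 passed the filter, with a median of -0.01 that was 0.04 without MLPH. SYTL5, a synaptotagmin-like protein that binds RAB27 as MLPH does, had log2 values of 8.82 and 8.40, a difference of -0.43. SYTL2 of the same family lay on the other side of 0 at 0.12. Under the filter were SYTL4, with 7.64 and 7.83, and the listed transport gene MYRIP, with 7.61 and 7.29. FMN1, a formin that nucleates actin, was the 1 gene at least 1.2-fold higher, with a difference of 0.27. Together with MLPH and SYTL5 it made 25.0% of the 12 past the filter, against 20.9% of all genes. MREG, melanoregulin, which acts in melanosome transfer and movement, had 0.18. SPIRE2, an actin nucleator that works with myosin V, differed by -0.16, and the dynactin subunit DCTN2 by -0.11. RAB27A and MYO5A, the direct partners of MLPH, were not analysed here.

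Of 38 listed genes of melanosome biogenesis, 20 were named and 19 passed the filter, with a median of 0.04. Among those that passed, 2 were at least 1.2-fold higher and 1 lower. This was a share of 15.8%, against 20.9% of all genes. BLOC1S4, a subunit of the BLOC-1 complex that sorts cargo to melanosomes, had log2 values of 8.36 and 8.87, a difference of 0.51. Its partners BLOC1S5, BLOC1S6 and SNAPIN had 0.10, 0.05 and 0.00, so these partners did not share the size. The listed partner DTNBP1 lay under the filter, with 7.62 and 7.72. KIF13A, a kinesin that delivers cargo to melanosomes, had 0.35. HPS6, a subunit of BLOC-2, had 8.43 and 8.09, a difference of -0.34, and HPS5 and HPS3 of the same complex had -0.18 and -0.08. HPS4 of BLOC-3 had 0.21, and STX3, a membrane fusion protein, had -0.23.

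**Figure D3:**
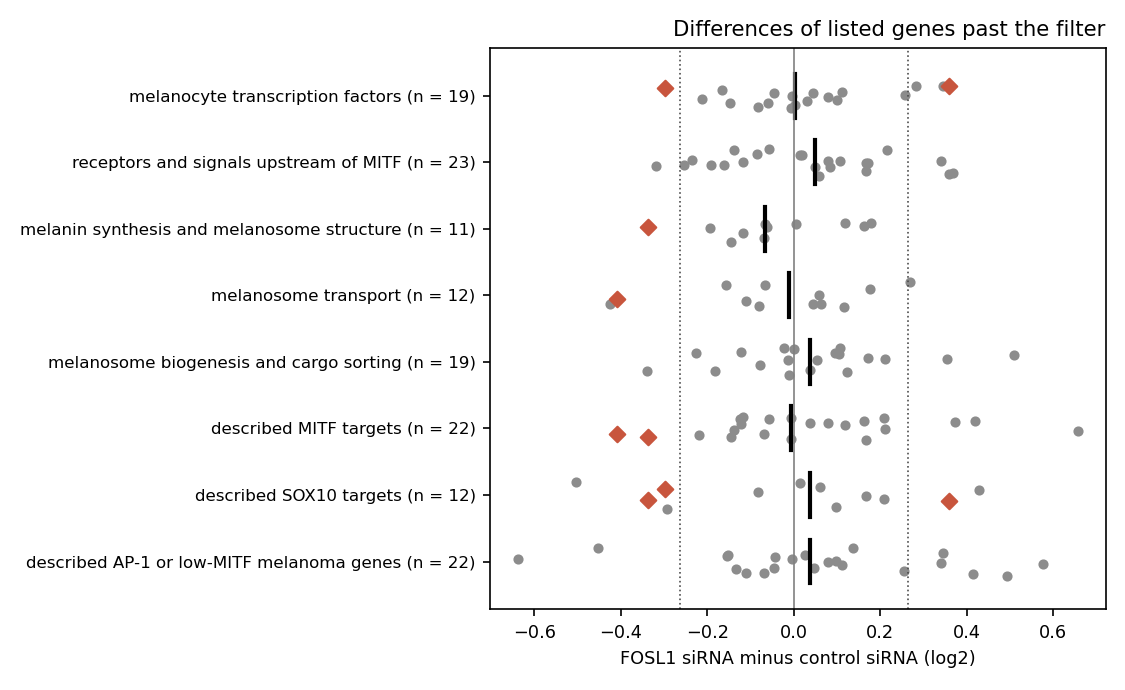
Difference of each listed gene past the filter (log2, FOSL1 siRNA minus control siRNA, horizontal axis), 1 row per list with the number of genes, with members as diamonds, other genes as dots, list medians as bars and 1.2-fold as dotted lines. The medians run from -0.07 to 0.05, while the members lie toward the ends of their lists. Members and lists were chosen with earlier results known, so this placement is a description.

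Genes described as MITF targets did not share 1 direction. Of 49 listed, 29 were named and 22 passed the filter with a median of -0.01, 10 above 0 and 12 below. Besides TYR and MLPH, 3 were at least 1.2-fold higher and none lower, and the median of those 20 was 0.02. With TYR and MLPH, 22.7% of the 22 were at least 1.2-fold from the control, against 20.9% of all genes. CEACAM1, an adhesion molecule, had log2 values of 8.99 and 9.65, a difference of 0.66, and at 1.58-fold was the 1 target past 1.5-fold. CTSK, the protease cathepsin K, had 10.75 and 11.17, a difference of 0.42, and BCL2, an inhibitor of apoptosis, had 0.37 from a control value of 7.95. SCD, a fatty acid desaturase, differed by -0.22 on its brightest probe set and -0.14 on the other. BCL2A1, a BCL2 relative, and BEST1, an ion channel, had -0.15 and -0.14, and the cell cycle kinase CDK2 had -0.12.

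Of 31 genes described as SOX10 targets, 16 were named and 12 passed the filter, with a median of 0.04, or 0.06 without the members. Of the 9 that are no members, 1 lay at least 1.2-fold above the control and 2 lay as far below it. With MITF, SOX10 and TYR, 50% of the 12 lay at least 1.2-fold from the control, against 20.9% of all genes. These members were picked with earlier results of the data known. FCRLA, an Fc receptor-like protein, had log2 values of 9.82 and 9.32, a difference of -0.50. POU3F1, a POU factor of Schwann cells, had 8.86 and 8.56, a difference of -0.29. NRCAM, a neural adhesion molecule, lay on the other side with 11.77 and 12.19, a difference of 0.43. ERBB3, the neuregulin receptor of glia and melanocytes, was at 0.01 and S100B at -0.08, while MCAM had 0.21.

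Genes described for AP-1 or for melanoma cells with little MITF ran from -0.64 to 0.58. All 22 that were named passed the filter, with a median of 0.04, and 1.2-fold was reached by 5 above the control and by 2 below it. That is 31.8% of the 22, against 20.9% of all genes. AXL, the receptor tyrosine kinase often high where MITF is low, had log2 values of 8.09 and 8.51, a difference of 0.41, on the same side as MITF. NGFR, a neural crest receptor, had 8.24 and 8.11, a difference of -0.13. CXCL8 and LPAR1 had 0.58 and 0.49, and MMP1, HMGA1 and DKK1 had -0.64, -0.45 and -0.15. The counts use the brightest probe set of a gene, and other probe sets gave lower values for HMGA1 and for VIM, the intermediate filament vimentin. The other probe set of HMGA1 had -0.59, past 1.5-fold. VIM had -0.15 on its brightest probe set and -0.44 and -0.36 on the others, both past 1.2-fold.

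Over all lists, 118 genes that are no members passed the filter, with a median of 0.02. At least 1.2-fold from the control were 17 higher and 7 lower, 20.3% of the 118. Over all 7442 genes the shares were 11.1% higher and 9.78% lower, 20.9% together. The listed genes whose differences were nearest to each member were FZD7 and KIF13A for MITF, POU3F1 and CRTC2 for SOX10, HPS6 and CRTC2 for TYR, and SYTL5 and HMGA1 for MLPH. The gaps ran from 0.000547 log2 units between FZD7 and MITF to 0.0442 between HMGA1 and MLPH. Likeness here is closeness of 1 difference from 2 arrays.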

How the data were processed

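Total RNA was amplified, labelled with biotin and hybridised to whole-transcript arrays, per the labels' protocols. The values, deposited by the authors, were 1 number per probe set and array, and their range (2.23 to 14.81) was taken as log2. The log base, background correction, summary method and genome build are not stated in the labels or the file. Sorted values of both arrays differed by at most 0.0301, as quantile normalization leaves them, so such values cannot show a change in the RNA content of the cells.

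Genes were named from the platform table and matched by Entrez ID to RefSeq (GRCh38.p14), where all 14884 were found. The brightest probe set stood for a gene. Python 3.11.15, numpy 2.4.6 and pandas 2.3.3 were used, statsmodels 0.14.6 for loess, and the code was tested on simulated data. The members, lists, motifs and thresholds were chosen with earlier results of these data known. Named genes were the members, the up to 3 highest and 3 lowest genes past the filter in each list, its best known genes and those nearest to a member. Genes named beyond this were chosen after their values were seen, among them partners in 1 complex or family, and listed genes under the filter. The alternatives were scaling, a level trend, the mean of probe sets, other filters, list means and, added later, a span trend.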

Additional observations from a re-analysis of the deposited data

How the results depend on the processing

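No paired analysis was possible because each condition had 1 array. Across the 4 alternatives that could alter them, the members kept their direction and shifted by under 0.18, the SD between probe sets: MITF lay between 0.25 and 0.36, SOX10 between -0.30 and -0.27, TYR between -0.42 and -0.34 and MLPH between -0.46 and -0.38. Scaling had little room to move them, since both arrays were distributed alike, and a mean of probe sets cannot alter a gene that has 1.

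With no filter on dim genes, 1741 genes were at least 1.2-fold higher and 2200 lower (26.5% together), and 284 and 213 at 1.5-fold, as more genes entered. With the filter at the 75th percentile, which leaves out MITF and MLPH, 269 were higher and 251 lower (14.0%), and 15 and 23 at 1.5-fold. The 8 list medians moved by at most 0.063. Those of transcription factors, upstream signals, MITF targets and SOX10 targets changed sign under at least 1 alternative. The median of melanosome transport kept its sign there but went from -0.01 to 0.04 without MLPH. With 1 array per condition, no list median is given a direction, also where its sign was kept.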
